A study of Danio rerio with 6 samples.

Results

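Core cardiac transcription factors are the DNA-binding proteins that switch on and hold the gene programme of heart muscle. The members described here are 10 genes taken by symbol: the GATA zinc-finger factors gata4, gata5 and gata6, the basic helix-loop-helix factor hand2, the homeobox factor nkx2.5, the T-box factors tbx5a and tbx20, and the MADS-box factors mef2ca, mef2aa and mef2d. Each symbol stood on exactly 1 row of the deposited table, so 10 of its 25089 genes were members. All 10 passed the filter on low values.

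RNA was sequenced from cells sorted by fluorescence from the ventricle apex of zebrafish of the strain Gata4:GFP, after injury tissue had been cleared away, and the submitters name them cardiomyocytes. The regenerating group holds 3 libraries from hearts taken 5 days after the apex was resected, and the uninjured group holds 3 libraries from hearts that were not resected. Both groups carry the transgene, a reporter in which gata4 regulatory sequence drives green fluorescent protein, and low-input amplification of cDNA was used for both. The age of the fish, the sorting gate and whether libraries came from separate or pooled animals are not given in the sources used here, so a p-value covers the differences among 3 libraries a group, part of which may be technical.

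In the vertebrate heart these factors bind side by side at the enhancers of sarcomere, ion channel and natriuretic peptide genes, and several of them bind one another. In zebrafish, gata5 and hand2 are needed to form enough heart muscle cells, nkx2.5 helps to keep ventricular identity, tbx5a is needed for heart and pectoral fin formation, and a gata4 reporter marks heart muscle cells near a resection wound as they divide. The comparison asks how the level of these regulators differs between regenerating and uninjured sorted cells.

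Levels are given in FPKM, fragments per kilobase of transcript relative to all mapped fragments, scaled between libraries by the median ratio of genes above 1 FPKM in all 6 of them. A change is the regenerating minus the uninjured mean of log2(scaled FPKM + 1), tested with limma over 13363 genes with Benjamini-Hochberg adjustment, and it passed when the adjusted p was below 0.05. Of the 10 factors, mef2aa fell in regenerating cells, none rose and 9 did not pass. Over all tested genes, 3.93% were called lower and 7.49% higher, 11.4% in all. The changes of the 10 factors had a median of -0.61 on the log2 scale, beside 0.05 for all tested genes, and 8 of the 10 lay below 0, as did 46.7% of all tested genes. At an unadjusted p below 0.05 limma gave 4 factors, all lower (mef2aa, hand2, gata6 and mef2ca), where 10.1% of all tested genes were lower at that p. In scaled FPKM the regenerating libraries all lay below the uninjured ones for 3 factors (gata6, hand2 and mef2aa), where 13.7% of tested genes showed that order. The groups overlapped for the other 7. Before scaling the groups overlapped for gata6, hand2 and mef2aa as well, and only gata5 stood apart, with the regenerating libraries higher.

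The scaling decides where 0 lies. Without it the median gene measured 0.50 higher in regenerating cells, 6 of the 10 factors lay below 0, none passed and 25.1% of all tested genes were called (23.6% higher and 1.5% lower). In the 3 scalings plotted with the changes, 8 of the 10 factors lay below the median gene, and gata5 and tbx5a lay above it. A scaling divides each library by a single value, which shifts the changes of all genes together, though not by equal amounts. mef2d lay at -0.41 from the median gene with median-ratio scaling and at -0.19 with scaling to cardiomyocyte markers. gata5 lay at 0.10 and 0.32 from it under these scalings. The side of the median gene on which a factor lies is thus largely carried over, and the agreement among scalings is no added evidence. The authors' deposited table calls 4 of the 10 lower, where it calls 4.62% of 21504 genes lower, and none higher, where it calls 4.84% higher. Those 21504 are all genes with a mean normalised count above 0. The filter on low values was not applied to them, so these shares are not those of the 13363 genes tested here. In the authors' deposited table these are mef2aa (authors' log2 fold change -1.10, adjusted p = 0.00623), mef2ca (-1.14, adjusted p = 0.00860), hand2 (-0.93, adjusted p = 0.00888) and gata6 (-1.07, adjusted p = 0.0164).

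The authors' mean normalised counts for the factors ran from 45.8 for tbx5a and 47.0 for nkx2.5 to 679 for mef2aa in the deposited table. Genes with a mean normalised count of 0 keep a small positive floor in the deposited values, which at the length of tbx5a would be at most 0.110 FPKM. The lowest value of any factor in any library was 0.96 FPKM, for tbx5a before scaling. The number of reads behind each value is unknown, so the only error shown is that among libraries.

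**Figure D1:**
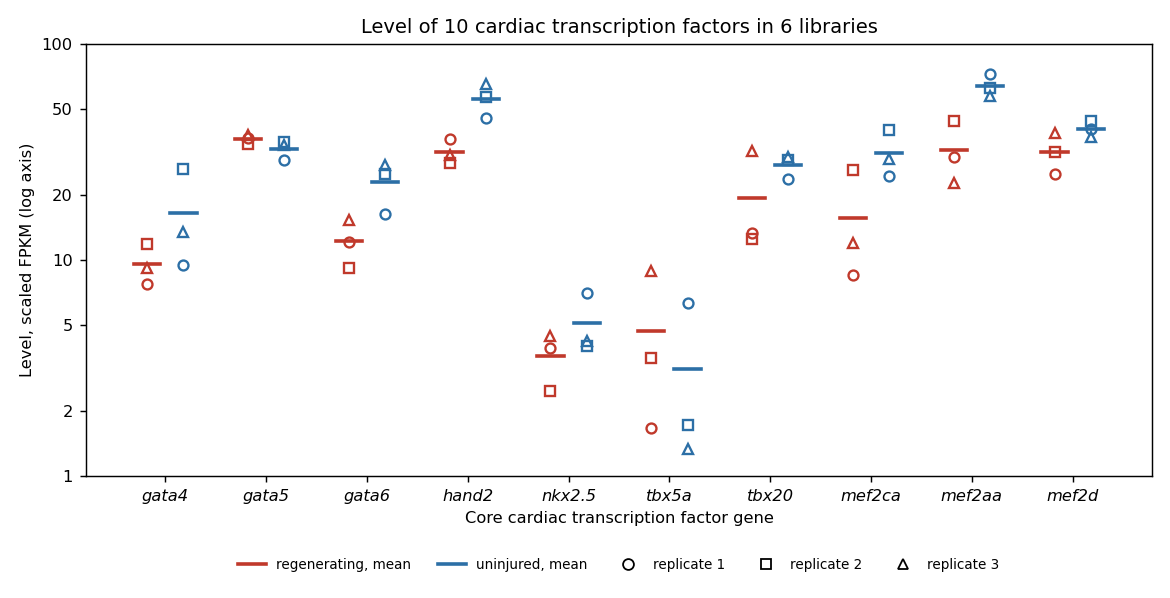
Level of each core cardiac transcription factor in scaled FPKM (log axis) in 3 regenerating (red, left of each pair) and 3 uninjured (blue, right of each pair) libraries. Symbols mark the replicate number and bars the group mean. In scaled FPKM the groups stand apart for gata6, hand2 and mef2aa, and overlap for the other 7 genes.

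The GATA factors share a pair of zinc fingers and bind the same core motif. gata4 (ENSDARG00000098952), the gene behind the reporter, measured 7.79, 11.8 and 9.20 scaled FPKM in the regenerating libraries and 9.46, 26.3 and 13.5 in the uninjured libraries. Uninjured replicate 2 stood far above all others, and the lowest uninjured library lay inside the regenerating range. The change was -0.62 (SE 0.36, limma adjusted p = 0.307), with a 95% interval of -1.42 to 0.19. Without uninjured replicate 2 it was -0.24 (limma adjusted p = 0.666), the nearest to 0 among the fits that leave out a library. Whether the reporter driven by gata4 sequence set the sorting gate is not given in the sources used here.

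gata5 (ENSDARG00000017821) had the smallest SE of the 10. It measured 36.8, 34.6 and 37.7 scaled FPKM in the regenerating libraries and 29.1, 35.0 and 33.9 in the uninjured libraries. The groups overlapped by 1 library on each side, and the change was 0.15 (SE 0.22, limma adjusted p = 0.695). Its interval, -0.33 to 0.64, leaves out a fall as large as that of mef2aa. Without scaling gata5 lay higher in every regenerating library (48.5, 38.3 and 48.9 FPKM) than in any uninjured one (21.5, 34.7 and 24.4 FPKM), with a change of 0.75 (SE 0.31, limma adjusted p = 0.0950).

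gata6 (ENSDARG00000103589), which acts with gata4 and gata5 in heart and endoderm formation, measured 12.1, 9.24 and 15.4 scaled FPKM in the regenerating libraries and 16.4, 25.0 and 27.5 in the uninjured libraries. The groups did not overlap in scaled FPKM, with a narrow gap between regenerating replicate 3 and uninjured replicate 1. The change was -0.85 (SE 0.29, limma adjusted p = 0.0905), and it passed without uninjured replicate 1 (-1.06, limma adjusted p = 0.0434). Its limma adjusted p reached 0.263 when other single libraries were left out and 0.957 over all 17 alternatives. Before scaling the groups overlapped for gata6, and the change was -0.27 (SE 0.36, limma adjusted p = 0.607).

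hand2 (ENSDARG00000008305), a helix-loop-helix factor of the ventricle, the epicardium and the fin bud, measured 36.4, 28.2 and 30.8 scaled FPKM in the regenerating libraries and 45.4, 56.5 and 65.1 in the uninjured libraries. In scaled FPKM every regenerating library lay below every uninjured one. The change was -0.78 (SE 0.24, limma adjusted p = 0.0640). It passed without uninjured replicate 1 (-0.91, limma adjusted p = 0.0409) and with upper-quartile scaling (-0.85, limma adjusted p = 0.0473). Its limma adjusted p reached 0.192 when other single libraries were left out and 0.845 over all 17 alternatives. Before scaling the groups overlapped for hand2, and the change was -0.18 (SE 0.32, limma adjusted p = 0.712).

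nkx2.5 (ENSDARG00000018004), the homeobox factor used as an early mark of heart progenitors, was low among the factors, at the 53.2nd percentile of tested genes. It measured 3.93, 2.48 and 4.44 scaled FPKM in the regenerating libraries and 7.03, 4.01 and 4.23 in the uninjured libraries. The ranges overlapped, with regenerating replicate 3 above 2 of the uninjured libraries. The change was -0.39 (SE 0.31, limma adjusted p = 0.459), and 0.11 without scaling.

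The T-box factors bind a shared DNA element, and tbx20 can activate or repress its targets. tbx5a (ENSDARG00000024894) measured 1.67, 3.51 and 8.92 scaled FPKM in the regenerating libraries and 6.31, 1.73 and 1.33 in the uninjured libraries. It was the most scattered of the factors, with 1 high library in each group (regenerating replicate 3 and uninjured replicate 1). The change was 0.45 (SE 0.54, limma adjusted p = 0.640), with an interval of -0.76 to 1.67, and without regenerating replicate 3 it was -0.046.

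tbx20 (ENSDARG00000005150) measured 13.4, 12.6 and 32.0 scaled FPKM in the regenerating libraries and 23.8, 28.9 and 30.1 in the uninjured libraries. Regenerating replicates 1 and 2 lay well below the uninjured range, while regenerating replicate 3 lay above it. The change was -0.61 (SE 0.35, limma adjusted p = 0.292), and without regenerating replicate 3 it was -1.01 (limma adjusted p = 0.0791).

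The MEF2 factors are MADS-box proteins that drive muscle structural genes and respond to calcium signals through histone deacetylases. mef2aa (ENSDARG00000031756) measured 30.1, 44.1 and 22.6 scaled FPKM in the regenerating libraries and 72.8, 62.5 and 57.2 in the uninjured libraries. The groups did not overlap, and the means were 32.3 ± 10.9 in regenerating and 64.2 ± 7.93 in uninjured cells (SD, n = 3 each). The change was -1.01 (SE 0.28, limma adjusted p = 0.0444), with all 3 regenerating libraries lower in scaled FPKM. This call is close to the threshold: leaving out single libraries, it passed only without regenerating replicate 2 (adjusted p = 0.0451). The adjusted p was 0.165 without regenerating replicate 1, 0.177 without regenerating replicate 3, and 0.0834, 0.0794 and 0.0730 without uninjured replicates 1, 2 and 3. Over all 17 alternatives its adjusted p ran from 0.0361 to 0.926. Before scaling mef2aa measured 39.75, 48.83 and 29.36 FPKM in the regenerating libraries and 53.98, 61.91 and 41.15 in the uninjured libraries. There the groups overlapped, and the change was -0.41 (SE 0.32, limma adjusted p = 0.359).

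mef2ca (ENSDARG00000029764), a MEF2C gene also known in zebrafish for patterning the jaw skeleton, measured 8.56, 26.1 and 12.1 scaled FPKM in the regenerating libraries and 24.4, 40.1 and 29.4 in the uninjured libraries. Regenerating replicate 2 alone reached the uninjured range, passing uninjured replicate 1. The change was -1.08 (SE 0.38, limma adjusted p = 0.102), the largest in size of the 10. It passed without regenerating replicate 2 (-1.48, limma adjusted p = 0.0435), the library that made the groups overlap. Without regenerating replicate 1 it was -0.74 (limma adjusted p = 0.357). Over all 17 alternatives its limma adjusted p ran from 0.0435 to 0.833.

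mef2d (ENSDARG00000040237), a MEF2 gene expressed in many tissues, measured 25.0, 31.6 and 38.6 scaled FPKM in the regenerating libraries and 40.6, 43.9 and 37.2 in the uninjured libraries. Only regenerating replicate 3 entered the uninjured range. The change was -0.36 (SE 0.24, limma adjusted p = 0.373), and 0.23 without scaling.

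**Figure D2:**
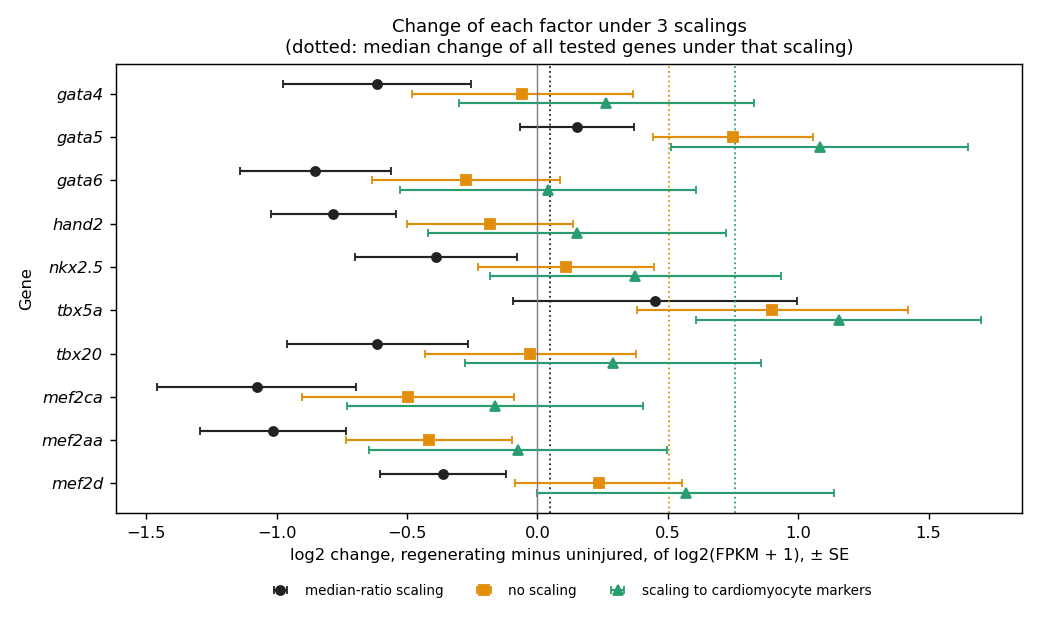
Change of each factor (log2, regenerating minus uninjured, ± SE) with median-ratio scaling (black), without scaling (orange) and scaled to cardiomyocyte markers (green). Dotted lines mark the median change of all tested genes, 0.05, 0.50 and 0.76. In each colour 8 factors lie left of their dotted line, and gata5 and tbx5a lie right of it. A scaling shifts all genes together, though not equally, so this agreement among the colours is largely built in and is no added evidence.

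The order of the levels differed between the groups. In regenerating cells gata5 stood first at 36.4 ± 1.63 scaled FPKM (SD, n = 3), followed by mef2aa (32.3 ± 10.9), hand2 (31.8 ± 4.18) and mef2d (31.7 ± 6.82). Every neighbouring pair in the regenerating order overlapped in range, down to gata4 (9.61 ± 2.06), tbx5a (4.70 ± 3.77) and nkx2.5 (3.62 ± 1.02). These ranges run over the libraries of a group and do not pair genes of the same library. An overlapping pair can thus keep its order in every library, as gata4 over tbx5a did in the regenerating group and tbx20 over gata6 in the uninjured group. In uninjured cells mef2aa stood first at 64.2 ± 7.93 scaled FPKM (SD, n = 3), followed by hand2 (55.7 ± 9.86), mef2d (40.6 ± 3.37) and gata5 (32.7 ± 3.17). There the libraries of hand2 lay above those of mef2d, those of mef2d above those of gata5, and those of gata4 (16.4 ± 8.82) above those of nkx2.5 (5.09 ± 1.68), while the other neighbouring pairs overlapped. Against all tested genes, the mean level of the factors ran from the 49.6th percentile for tbx5a to the 94.8th for mef2aa.

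The 10 factors summed to 176, 204 and 212 scaled FPKM in the regenerating libraries and to 275, 324 and 299 in the uninjured libraries. Without scaling these sums were 232, 226 and 275 FPKM in the regenerating libraries, against 204, 321 and 215 in the uninjured libraries, so the groups overlapped. The highest regenerating library was replicate 3 for 6 factors (gata5, gata6, nkx2.5, tbx5a, tbx20 and mef2d) and replicate 2 for 3 (gata4, mef2ca and mef2aa). Within the uninjured group, replicate 1 was highest for nkx2.5, tbx5a and mef2aa.

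The balance within a family does not depend on the scaling between libraries, because it divides genes of the same library. These ratios were chosen after the values were seen. gata5 over gata6 measured 1.602, 1.903 and 1.297 on the log2 scale in the regenerating libraries and 0.82, 0.48 and 0.30 in the uninjured libraries. The groups stood apart, by 1.06 on average, with an exact two-sided permutation p of 0.1, the smallest that 3 libraries against 3 allow, and 0.35 when adjusted over the 7 pairs compared. Of the summed FPKM of the GATA members, gata5 made up 62.5% ± 2.18 in regenerating libraries and 46.2% ± 6.24 in uninjured libraries (SD, n = 3 each). The share of gata6 was 20.9% ± 4.05 in regenerating and 31.9% ± 4.23 in uninjured libraries, and that of gata4 was 16.6% ± 4.09 in regenerating and 21.9% ± 7.44 in uninjured libraries.

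In the MEF2 family, mef2aa over mef2d measured 0.27, 0.48 and -0.77 on the log2 scale in the regenerating libraries and 0.84, 0.51 and 0.62 in the uninjured libraries. The groups stood apart only narrowly, with regenerating replicate 2 next to uninjured replicate 2 (exact permutation p = 0.1, two-sided, and 0.35 adjusted over the 7 pairs). The share of mef2d in the MEF2 sum was 41.0% ± 10.9 in regenerating libraries and 29.8% ± 0.305 in uninjured libraries (SD, n = 3 each). The ratio of mef2ca to mef2aa overlapped between groups, at -1.16 ± 0.574 in regenerating and -1.06 ± 0.476 in uninjured libraries on the log2 scale (SD, n = 3 each). In the T-box pair tbx5a made up 18.2% ± 6.19 in regenerating and 10.3% ± 9.28 in uninjured libraries, and the groups overlapped.

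**Figure D3:**
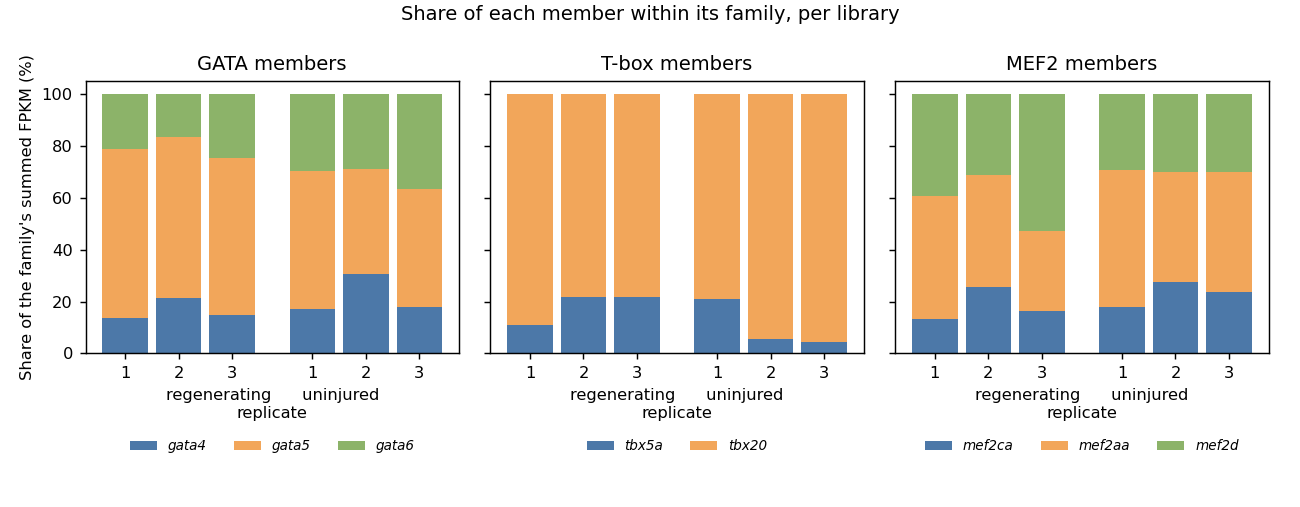
Share (%) of each member in the summed FPKM of its family, for each regenerating (left) and uninjured (right) library. The gata5 share lies above 60% in every regenerating library and between 40.5% and 52.9% in the uninjured ones. The tbx5a share is high in uninjured replicate 1 and below 6% in the other uninjured libraries.

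Close relatives of the factors were mostly lower expressed. Of 10 paralogs, 5 passed the filter on low values and none of those 5 passed the test (limma), with a median change of -0.39 (0.01 without scaling) and 1 at an unadjusted p below 0.05. Over all tested genes 11.4% were called, and 10.1% were lower at that unadjusted p in limma. All 5 paralogs lay below 0, as did 46.7% of all tested genes. The tbx5a relative tbx5b averaged 4.18 ± 2.01 scaled FPKM in regenerating and 4.54 ± 2.64 in uninjured cells (SD, n = 3 each), near the level of tbx5a itself. The mef2ca relative mef2cb averaged 5.99 ± 0.746 in regenerating and 8.16 ± 1.06 in uninjured cells. gata2a, a blood and endothelial factor, measured 2.67, 2.08 and 1.67 in regenerating and 5.91, 3.79 and 4.74 scaled FPKM in uninjured libraries (change -0.88, SE 0.28, limma adjusted p = 0.0734). gata1a, the red cell and thrombocyte factor, measured 27.8 scaled FPKM in uninjured replicate 1 and at most 7.496 in the other libraries of either group. nkx2.7, the close partner of nkx2.5 in zebrafish, reached at most 1.03 scaled FPKM, and nkx2.3, mef2ab and mef2b stayed below 1. Whether paralogs share reads was not tested.

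Among 25 tested genes of 35 other cardiac and limb-field regulators, 4 rose, 4 fell and 17 did not pass. Over all tested genes 7.49% were called higher and 3.93% lower. The median change of the regulators was 0.12 (0.64 without scaling). The lower genes were hey2, a Notch-controlled repressor of the ventricle, prdm16, a zinc-finger factor of compact heart muscle in mice, irx1a, an Iroquois factor, and hopx, a homeodomain-only protein. hey2 (ENSDARG00000013441) measured 1.96, 0.162 and 1.03 scaled FPKM in the regenerating libraries and 18.05, 4.74 and 13.9 in the uninjured libraries, a change of -2.62 (SE 0.49, limma adjusted p = 0.0105). prdm16 (ENSDARG00000078324) measured 2.28, 1.99 and 2.71 in the regenerating libraries and 11.7, 12.1 and 8.94 scaled FPKM in the uninjured libraries (change -1.84, SE 0.26, limma adjusted p = 0.00320). Of these 4 genes only prdm16 passed in every fit that left out a library, and hey2 missed without regenerating replicate 2.

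The higher regulators were tbx18, an epicardial T-box factor, tbx1, irx5a and nr2f1a, an atrial factor in zebrafish. tbx18 averaged 19.5 ± 9.09 scaled FPKM in regenerating and 3.04 ± 2.90 in uninjured cells (SD, n = 3 each). Its change was 2.52 (SE 0.57, limma adjusted p = 0.0225), and it missed without regenerating replicate 1 or 3. The authors' deposited table does not call tbx18 (authors' adjusted p = 0.105). The other 3 were detected above 1 FPKM in the regenerating libraries only, so they passed the filter through that group alone and had to differ, and they were not tested when a regenerating library was left out. The most abundant regulators were the homeobox gene meis1b (38.1 ± 6.90 in regenerating and 34.6 ± 4.93 scaled FPKM in uninjured cells; SD, n = 3 each) and the forkhead gene foxc1b (16.2 ± 1.86 in regenerating and 25.5 ± 14.2 in uninjured cells), and neither passed. isl1, the factor of late-adding heart progenitors, stayed below 1 FPKM in every library. Without regenerating replicate 1 or 3 none of these regulators was called higher, and without regenerating replicate 2 only 1 was. The lower ones numbered 2 without regenerating replicate 2 or 3. Without scaling 6 regulators were higher and 2 lower, and with scaling to cardiomyocyte markers 6 were higher and 1 lower.

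Of 22 tested cofactors and modifiers, 2 fell, none rose and 20 did not pass, with a median change of -0.28 (0.22 without scaling). Beside this, 11.4% of all tested genes were called, 3.93% lower and 7.49% higher. myocd (ENSDARG00000098836), the muscle coactivator that works with serum response factor, measured 18.5, 32.8 and 13.7 scaled FPKM in the regenerating libraries and 82.3, 60.4 and 66.2 in the uninjured libraries (change -1.72, SE 0.32, limma adjusted p = 0.0105). hdac9b (ENSDARG00000056642), a histone deacetylase of the class that binds and represses MEF2 proteins, measured 2.43, 5.77 and 3.32 in the regenerating libraries and 15.2, 11.9 and 9.64 scaled FPKM in the uninjured libraries (change -1.49, SE 0.32, limma adjusted p = 0.0183). In both genes the groups stood apart. Regenerating replicate 2 was the highest regenerating library for both. Of the 10 factors it was highest for 3 (gata4, mef2aa and mef2ca), while regenerating replicate 3 was highest for 6, mef2d among them. myocd missed without regenerating replicate 1 (adjusted p = 0.0574), and hdac9b missed without regenerating replicate 1 or 3 and without scaling. The chromatin remodelling subunit gene smarcd3a, a GATA and T-box partner in mice, was next by p (change -0.88, SE 0.26, limma adjusted p = 0.0587), but it passed the filter through the uninjured libraries alone and so had to differ. The splicing factor gene rbfox2, among the most abundant, had a change of 0.33 (SE 0.23, limma adjusted p = 0.403). No cofactor was called lower without regenerating replicate 1 and 1 was without regenerating replicate 3. Without scaling 3 cofactors were higher and 1 lower, and with scaling to cardiomyocyte markers 1 was higher and none lower.

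Of 30 tested genes known from fish or mammals as targets of these factors, 7 fell, 1 rose and 22 did not pass, with a median change of -0.66 (-0.07 without scaling). Among all tested genes 3.93% were called lower and 7.49% higher. Without scaling 6 targets were lower and 2 higher, and with scaling to cardiomyocyte markers 2 were lower and 3 higher. The lower targets were vmhcl, ttn.1, ttn.2, tnni4a, mybpc3, ryr2b and xirp1, genes of the thick filament, the elastic filament, the thin filament, calcium release and cell junctions. vmhcl, a ventricular myosin heavy chain, averaged 264 ± 57.3 scaled FPKM in regenerating and 1300 ± 264 in uninjured cells (SD, n = 3 each; change -2.30, SE 0.27, limma adjusted p = 0.00137). ttn.2, a titin gene, averaged 39.1 ± 11.8 in regenerating and 198 ± 25.9 scaled FPKM in uninjured cells (change -2.34, SE 0.27, limma adjusted p = 0.00122). xirp1 (ENSDARG00000030722), an actin-binding protein of the intercalated disc, averaged 20.01 ± 5.67 scaled FPKM in regenerating and 122 ± 49.7 in uninjured cells (SD, n = 3 each; change -2.51, SE 0.32, limma adjusted p = 0.00192). All of the 7 but mybpc3, which missed without regenerating replicate 1 or 2, passed in every fit that left out a library. The natriuretic peptide genes, classic targets of GATA and T-box factors, gave no call: nppa had a change of 0.56 (SE 0.61, limma adjusted p = 0.597) and nppb one of 0.42 (SE 0.41, limma adjusted p = 0.544). The target called higher, nppal, averaged 6.87 ± 4.92 scaled FPKM in regenerating and 0.233 ± 0.0172 in uninjured cells, the second at about the floor for its length, so its fold change is uncertain. It passed the filter through the regenerating libraries alone. The myosin light chain gene myl7, the most abundant target, averaged 1865 ± 946 in regenerating and 3217 ± 1130 scaled FPKM in uninjured cells, and did not pass (limma adjusted p = 0.227).

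**Figure D4:**
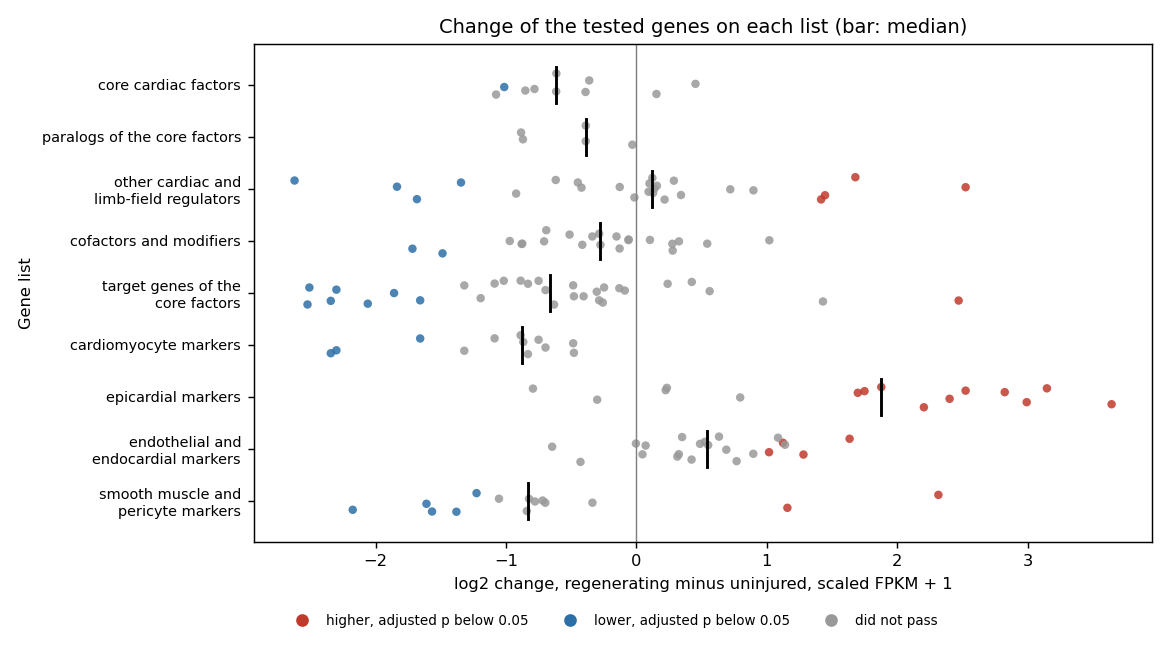
Change of every tested gene (log2, regenerating minus uninjured) on the list of core factors, 4 lists of related genes and 4 marker lists. Points are genes, coloured by call, and bars are list medians. The core factors have a median of -0.61, their targets one of -0.66, the cardiomyocyte markers one of -0.88 and the epicardial markers one of 1.88.

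Markers of heart muscle were abundant in every library. All 12 cardiomyocyte markers tested, most of them also on the list of targets, lay below 0, but tnni1b (0.13) and tpm4a (0.13) lay above 0 without scaling. Of the 12, vmhcl, ttn.2 and mybpc3 fell and 9 did not pass, where 3.93% of all tested genes were called lower. Without scaling 2 were called lower. The summed level of the markers ran from 5819 to 10828 scaled FPKM in the regenerating libraries and from 8849 to 17762 in the uninjured libraries. In bulk samples such as these, fewer cells of a type and less RNA per cell cannot be told apart. Scaled to these markers instead of to all genes, 8 of the 10 factors lay above 0, with a median of 0.28, and mef2aa measured -0.07 (limma adjusted p = 0.926). The median of all tested genes was 0.76 under that scaling, and 8 of the 10 factors lay below it. Library by library, the marker sum was 6051, 5819 and 10828 scaled FPKM in the regenerating libraries, whose 10 factors summed to 176, 204 and 212. It was 17762, 15300 and 8849 scaled FPKM in the uninjured libraries, whose 10 factors summed to 275, 324 and 299. Regenerating replicate 3 was highest of its group in both sums, while uninjured replicate 1 had the highest marker sum and the lowest factor sum of its group. The part of heart muscle content in the levels of the factors was not tested.

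As background for the marker lists here, 7.49% of all tested genes were called higher and 3.93% lower. Of 15 epicardial markers tested 10 rose and none fell, with sums of 2141 to 3439 scaled FPKM in the regenerating libraries and 1015 to 1504 in the uninjured libraries, while upk3b stayed at or below 1 FPKM in every library. Of 19 fibroblast markers 14 rose and none fell, col12a1b among them having passed the filter through the regenerating libraries alone, with sums of 3004 to 3433 in the regenerating libraries and 727 to 1167 scaled FPKM in the uninjured libraries. The lists share genes: tcf21, called higher, counts as both an epicardial and a fibroblast marker, and tbx18 as both an epicardial marker and a regulator. Of 22 endothelial and endocardial markers 4 rose, with sums of 321 to 488 in the regenerating libraries and 240.04 to 278 scaled FPKM in the uninjured libraries. None of these 22 was called without regenerating replicate 1 or 2, 2 were without regenerating replicate 3 or uninjured replicate 2, and 1 was without uninjured replicate 3. Without scaling 10 of them were higher, and with scaling to cardiomyocyte markers 9 were. For epicardial markers both of these scalings gave 11 higher, and for fibroblast markers 17. GATA factors, hand2 and T-box factors are also known from the epicardium and endocardium, and MEF2 factors from endothelium and smooth muscle. The part of these cells in the levels of the 10 factors was not tested.

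Over all tested genes 11.4% were called (7.49% higher and 3.93% lower), which is the background for the lists that follow as for those above. Among 14 markers of pericytes and smooth muscle, 5 were called lower and 2 higher, with sums of 393 to 468 scaled FPKM in the regenerating libraries and 649 to 809 in the uninjured libraries; without regenerating replicate 1 these calls numbered 3 and 1, and 1 was higher without regenerating replicate 2 or 3 or uninjured replicate 1 or 2. Thrombocyte markers gave 3 lower and 1 higher of 12, none lower without regenerating replicate 1 and 1 lower without regenerating replicate 3. The higher one, fn1b, is also on the list of fibroblast markers. Of the 12 thrombocyte markers 11 lay below 0 and 1 above, with a median change of -1.11 (-0.52 without scaling). Their sums were 759 to 918 in the regenerating libraries and 603 to 1143 scaled FPKM in the uninjured libraries. Macrophage and leukocyte markers gave 5 higher of 17 (3 when regenerating replicate 2 or 3 was left out, 2 when regenerating replicate 1 was), with sums of 90.8 to 227 in the regenerating libraries and 143 to 165 scaled FPKM in the uninjured libraries. Erythrocyte markers gave 3 higher of 13, 1 without regenerating replicate 1 or 2 and 7 without uninjured replicate 1, or 7 without scaling and 8 with scaling to cardiomyocyte markers, with sums of 399 to 1111 in the regenerating libraries and 33.5 to 493 scaled FPKM in the uninjured libraries. In these lists c1qc (macrophage) and alas2 (erythrocyte) passed the filter through the regenerating libraries alone, and left the test when one of those was left out. The macrophage calls numbered 7 higher without scaling and 8 with scaling to cardiomyocyte markers. The lower calls of smooth muscle numbered 3 without scaling and those of thrombocytes 2, and neither list had any with scaling to cardiomyocyte markers. Among 25 genes induced by cell dissociation, 2 were called higher and 1 lower, a share near that of all tested genes. Without scaling 4 were higher and none lower, and with scaling to cardiomyocyte markers 3 were higher and none lower. The higher calls there numbered 0 without regenerating replicate 1 and 1 when regenerating replicate 3 or any uninjured library was left out, and the lower call was lost when any 1 regenerating library or uninjured replicate 3 was left out. Their sums were 4899 to 6582 in the regenerating libraries and 5734 to 6897 scaled FPKM in the uninjured libraries. Transcripts of the 13 mitochondrially encoded genes took 10.3% to 18.8% of summed FPKM in the regenerating libraries and 21.8% to 41.9% in the uninjured libraries. With these genes left out of the totals used for scaling, mef2aa had a change of -1.06 (limma adjusted p = 0.0361). Under that scaling 8 of the 10 factors lay below 0, with a median of -0.66, and mef2aa alone was called. Over all tested genes 794 were higher and 496 lower. Endothelial and endocardial markers gave 2 higher, and the dissociation genes 1 higher and 1 lower. The part of the mitochondrial share in the results was not tested beyond this scaling.

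Genes with profiles most like those of gata4 and mef2aa were sought among 5053 genes averaging at least 5 scaled FPKM, by the root-mean-square difference of log2 values over the 6 libraries after centring each gene on its mean. Nearest to gata4 were abcc3 (0.08), arnt2 (0.15) and ttyh2 (0.16). Nearest to mef2aa were tpte (0.11), itpr3 (0.11) and MYO1G (0.14). The measure describes these libraries only.

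**Figure D5:**
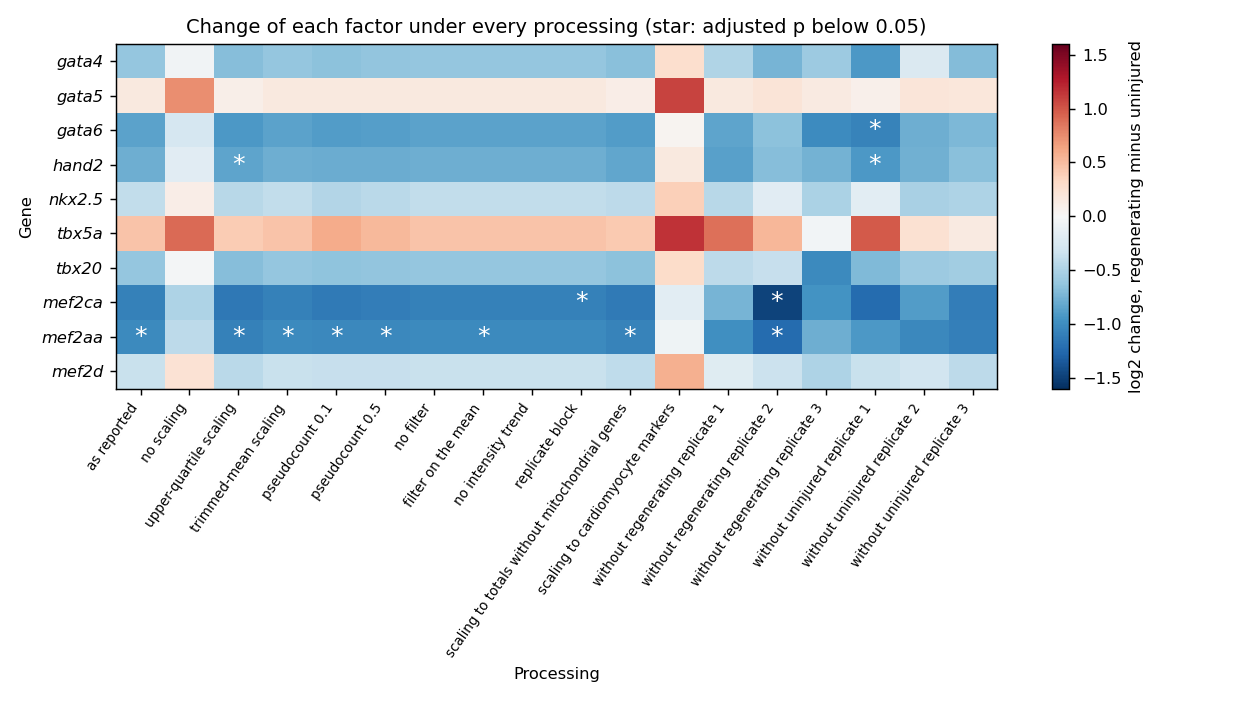
Change of each factor (colour, log2, regenerating minus uninjured) as reported and under 17 alternatives, with a star where the adjusted p was below 0.05. The row of mef2aa is the one starred as reported. Scaling to cardiomyocyte markers turns 6 of the 10 factors from below to above 0, where the median of all tested genes is 0.76.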

How the data were processed

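The submitters' processing notes name the GRCz10 build, R 3.3.3, DESeq2 with no version, RSEM 1.3.0 and STAR 2.5.3a. The authors deposited log2 values of FPKM per gene, per the file headers. The unlogged values lay on a grid of 0.01 (100% within 0.001) and the lowest was 0.1, so an offset of 0.1 was subtracted. The authors' deposited table also gives a log2 fold change, a p-value, an adjusted p-value and a mean normalised count (a score here) per gene. Its signs matched those of limma for all 1293 genes called by both, so a positive value is higher in regenerating cells.

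FPKM was divided by median-ratio factors from the 8963 genes above 1 FPKM in all 6 libraries. Genes above 1 FPKM in at least 3 libraries entered a limma fit (limma 3.58.1, R 4.3.3) on log2(FPKM + 1), with an intensity trend and group as the only term; low genes are understated on that scale. Tests were two-sided. FPKM summed to 508557 to 535337 in the regenerating and 422675 to 460407 in the uninjured libraries. Genes above 1 FPKM numbered 13505 to 13763 in the regenerating and 11334 to 12241 in the uninjured libraries. The scaling factors were 1.11 to 1.32 in the regenerating and 0.72 to 0.99 in the uninjured libraries. The part of these group differences in the results was not tested. Spearman correlations between libraries were 0.712 to 0.915, and the number of reads per library is unknown. No count test could be run.

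The members, the gene lists and the scaling were chosen with earlier results of these data known. The text names every member and, of the 4 lists of related genes, members with the smallest p and the highest level, and others chosen after their values were seen. Of the 287 list entries, 266 matched the file's symbols, 7 matched the current symbol of the gene ID and 14 were not matched. The limma step was tested on simulated data. Coordinates are left out, since the reference tables belong to another build.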

Additional observations from a re-analysis of the deposited data

How the results depend on the processing

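Over 17 alternatives, 2 of them added after seeing the data (scaling to totals without mitochondrial genes and to cardiomyocyte markers), no core factor was called higher. The lower factors, 1 as reported, numbered 0 without scaling, without the filter, without the intensity trend and with scaling to cardiomyocyte markers, 2 with upper-quartile scaling, and 0 to 2 when a library was left out. With the replicate number as a block the count stayed at 1, but the gene was mef2ca (adjusted p = 0.0472) and not mef2aa (adjusted p = 0.0552). Same-numbered libraries did not deviate together over all tested genes (correlations of -0.01, -0.0046 and -0.06). Whether the numbers pair libraries is not given in the sources used here, and these correlations cannot settle it. Over all genes, 1001 were higher and 525 lower. These were 3159 and 200 without scaling, 479 and 202 without the filter, and 2375 and 58 with scaling to cardiomyocyte markers. Leaving out single libraries gave 249 to 1056 higher and 133 to 537 lower genes. Of the 248 other listed genes, not all of them tested, 65 passed, where 11.4% of all tested genes did. The count was 40 without the filter, and 35 to 69 when a library was left out. The 65 include tbx1, irx5a, nr2f1a, nppal, col12a1b, c1qc and alas2, which passed the filter through the regenerating libraries alone and so had to differ. Of the fits that left out a library, the one without uninjured replicate 1 gave the highest counts of genes, and the cause was not tested.

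Direction changed for nkx2.5 (0.11) and mef2d (0.23) without scaling. It changed for gata4 (0.26), gata6 (0.041), hand2 (0.15), nkx2.5 (0.38), tbx20 (0.29) and mef2d (0.57) with scaling to cardiomyocyte markers, and for tbx5a (-0.046) without regenerating replicate 3, the lowest of its values with a library left out, which reached 0.98. None of these passed. With scaling to cardiomyocyte markers the median of all tested genes was itself 0.76. The call of mef2aa held in 7 of the 17 alternatives and was lost in 10, with the same direction in all.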
